A study of Arabidopsis thaliana with 8 samples.

Results

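Ribosome footprints of hot3-2 inflorescences were set against those of wild-type (WT) inflorescences of Arabidopsis thaliana. hot3-2 is a T-DNA insertion allele of HOT3 (AT1G76810, TAIR10 chr1:28830902-28836748), the gene of the translation initiation factor eIF5B1. The comparison holds 4 of the 8 libraries of the series, 2 of hot3-2 and 2 of WT, chosen by their genotype labels. The other 4 libraries are of plants with mutations in the Dicer-like genes DCL2 and DCL4, 2 with hot3-2 (hot3-2 dcl2 dcl4) and 2 without it (dcl2 dcl4). All plants were of the Col-0 ecotype and grew in 16 h of light and 8 h of dark, with no treatment named in the labels. The mutant is represented by 1 insertion allele, and a whole inflorescence mixes all floral organs and stages. Where a list of genes for 1 tissue is lower, fewer cells of that type and less RNA per cell therefore cannot be told apart. The genes described are those whose coding-sequence footprints could be tested, 13303 of the 22384 nuclear genes used, and 725 of the tested genes belonged to 25 gene lists.

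eIF5B is a GTPase that joins the large ribosomal subunit to the small subunit once the start codon has been found. Plant cells make ribosomal proteins and the factors of ribosome assembly together when they grow and divide, and many of their promoters carry a short sequence called the telo box. In the anther, the tapetum is the nurse tissue that makes the precursors of the pollen wall and the oily pollen coat, and it breaks down as pollen ripens. The light-harvesting and photosystem proteins described here are encoded in the nucleus, translated in the cytosol and imported into chloroplasts.

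A footprint was counted where its P site, the ribosomal position that holds the initiator tRNA at the start codon, fell in the coding sequence. The count reads the amount of an mRNA together with its translation, and RNA-seq was not used here. Levels are given as P sites per 1000000 nuclear coding-sequence P sites after scaling (CPM), and changes as log2 fold changes of hot3-2 over WT. Genes were tested with limma voom, and a gene was called at a Benjamini-Hochberg adjusted p under 0.05 over all 13303 genes. The hot3-2 libraries held 1980798 and 1527617 nuclear coding-sequence P sites, against 2839839 and 2590875 in WT. The share of these in 28 nt footprints was 47.9% and 46.9% in hot3-2 and 47.2% and 45.6% in WT. The share outside the first 15 and last 5 codons was 89.3% and 89.7% in hot3-2, against 92.8% and 92.9% in WT. Replicates differed by more than sampling noise, by a chi-square statistic over genes of 2.89 in hot3-2 and 3.06 in WT where noise alone gives 1. The labels do not say whether replicates came from separate plants, and p-values measure only the spread between these libraries.

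The floral label was checked against 16 floral identity genes, of which 14 were in the files and 10 passed the filter on low counts. Their summed level was 660.1 and 725 CPM in hot3-2 and 864 and 774 CPM in WT. AG, which acts in stamens and carpels, and SHP2, which acts in carpels, had no count in any of the 4 libraries. The reason for these empty counts was not tested, and they do not show that the genes were untranslated. PI, which specifies petals and stamens, was the 1 list member that passed the test, with 282 and 345 CPM in hot3-2, against 427 and 358 CPM in WT (log2 fold change -0.34 ± 0.10, adjusted p = 0.0141), and it no longer passed without hot3-2 replicate 1 (-0.18, adjusted p = 0.465) or without WT replicate 1 (-0.21, adjusted p = 0.3).

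HOT3 itself had 37 and 45.9 CPM in hot3-2, against 103 and 144 CPM in WT. Both hot3-2 libraries were below both WT libraries (log2 fold change -1.57 ± 0.21, adjusted p = 6.84e-09), and the gene was 2.97-fold lower. In raw numbers there were 74 and 69 P sites in hot3-2, against 284 and 370 in WT. A share of 79.3% of the 28 nt stretches of its coding sequence were found in no other annotated coding sequence, and footprints on the remaining stretches can come from a related gene. Along the coding sequence, the 7th of 10 equal parts had 0 and 0 P sites in hot3-2, against 11 and 14 in WT. The other 9 parts held P sites in both genotypes.

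AT1G21160 (TAIR10 chr1:7407931-7413295, minus strand), another eIF5B gene, had the largest rise of the genes named here. Its level was 131 and 95.2 CPM in hot3-2, against 7.97 and 5.08 CPM in WT, a 17.2-fold difference (log2 fold change 4.11 ± 0.38, adjusted p = 1.17e-14). The first 10th of its coding sequence held 80 of 262 and 57 of 143 P sites in hot3-2, against 13 of 22 and 11 of 13 in WT, where P sites were few beyond it. The rise was 4.35 without the first 15 and last 5 codons. Of the other eIF5B genes, AT1G76720 had 0 and 0 P sites in hot3-2, against 4 and 4 in WT, too few to test, and AT2G27700 was not analysed here.

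**Figure D1:**
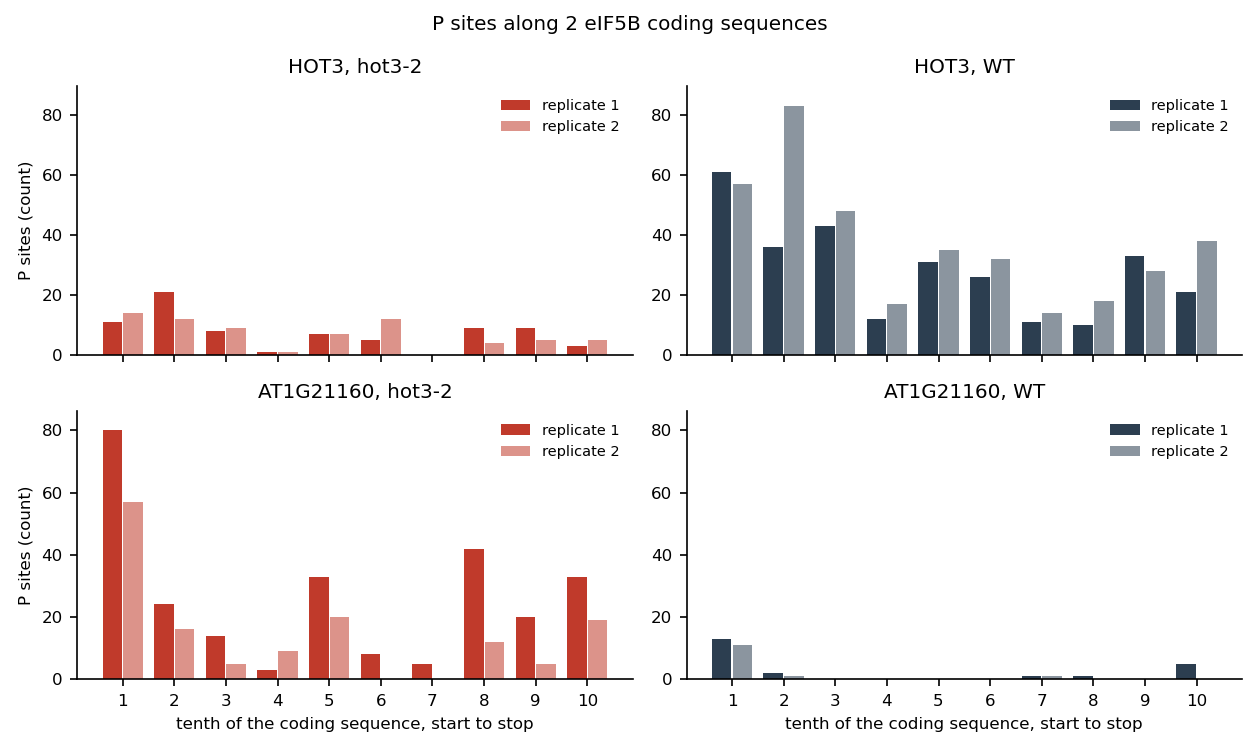
P sites (count, vertical axis) in each 10th of the coding sequence from start to stop (horizontal axis) of HOT3, upper row, and AT1G21160, lower row. Bars are libraries, replicate 1 in full colour and replicate 2 pale, with hot3-2 on the left and WT on the right. Counts are not adjusted for depth, which was lower in the hot3-2 libraries. HOT3 had fewer P sites in hot3-2 in each part and none in the 7th. In its 8th part the counts were close, 9 and 4 in hot3-2, against 10 and 18 in WT. AT1G21160 had P sites along its length in hot3-2 and few beyond the first part in WT.

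Over all genes tested, 1921 were called (14.4%), 976 higher in hot3-2 (7.34%) and 945 lower (7.1%), with a median log2 fold change of 0.00. In 1908 of the called genes both hot3-2 libraries lay on the same side of both WT libraries. The calls rest on these same libraries, so this separation is no further evidence for them. A difference of at least 2-fold was found in 584 called genes, 335 higher and 249 lower. Without hot3-2 replicate 1, the deeper of the hot3-2 libraries, 1251 genes were called, 61.9% of them higher, against 50.8% over all libraries. Of the called genes, 753 of the higher and 789 of the lower were in none of the lists. Higher in hot3-2 were genes of the ribosome and its assembly, initiation factors, and myrosinases with their partner proteins. Lower were genes of the tapetum, pollen coat and pollen, of photosynthesis, actins and several stress and phenylpropanoid genes.

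**Figure D2:**
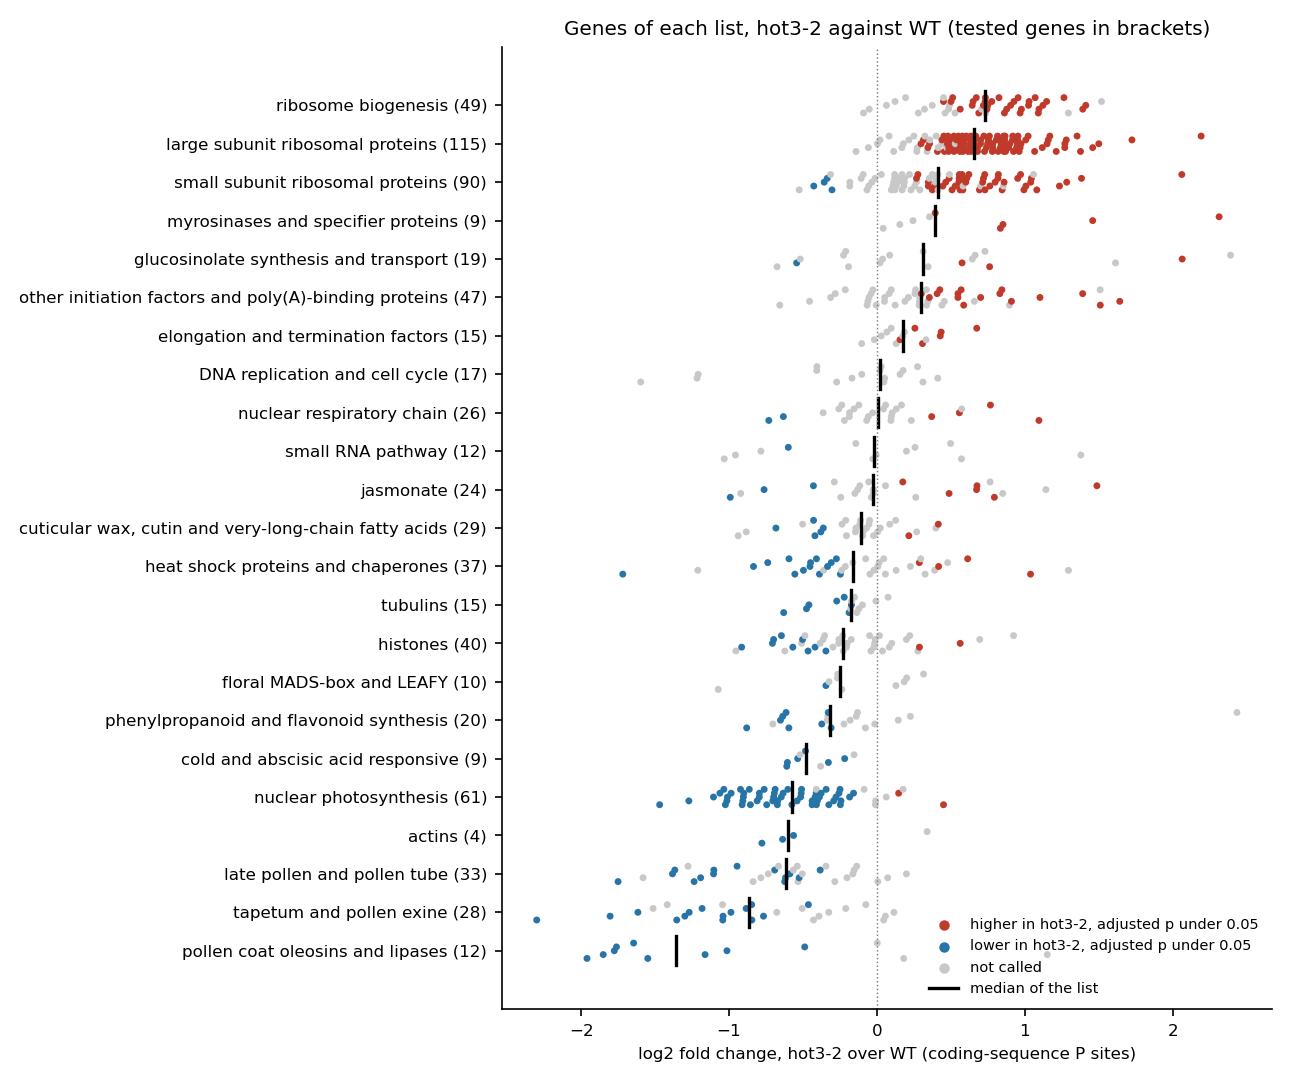
log2 fold change of hot3-2 over WT (horizontal axis) for the tested genes of each list (rows, with their number in brackets). Each point is a gene, red where called higher, blue where called lower and grey where not called, and the bar is the median of the list. Ribosome biogenesis and large subunit ribosomal proteins lie highest, with medians of 0.73 and 0.66, and pollen coat genes lowest, with -1.36.

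Beside AT1G21160, the largest rises among well-covered genes that passed in all 3 counts (whole coding sequence, without its ends, 28 nt) belonged to genes of varied annotation. AT2G18193, annotated as a P-loop nucleoside triphosphate hydrolase, had 56 and 99.8 CPM in hot3-2, against 9.78 and 4.69 CPM in WT (log2 fold change 3.36 ± 0.39, adjusted p = 7.42e-11). CORI3, a jasmonate- and coronatine-induced protein of the tyrosine transaminase family, had 65.5 and 61.9 CPM in hot3-2, against 6.52 and 14.1 CPM in WT, and its log2 fold change of 2.73 was 1.83 without the ends of the coding sequence. UGT74E2, a glycosyltransferase that acts on the auxin indole-3-butyric acid, had 93.5 and 93.2 CPM in hot3-2, against 13 and 22.6 CPM in WT (log2 fold change 2.44). In each of these genes the lower hot3-2 library was above the higher WT library.

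ESM1, an epithiospecifier modifier that shifts glucosinolate breakdown towards isothiocyanates, was the best covered of the 12 rises. It had 637 and 606 CPM in hot3-2, against 115 and 137 CPM in WT, a 4.97-fold difference (log2 fold change 2.31 ± 0.11, adjusted p = 2.13e-29). PIF4, a bHLH factor of light and temperature growth responses, had 39.5 and 45.3 CPM in hot3-2, against 12 and 12.5 CPM in WT (log2 fold change 1.77). PAO4, a peroxisomal polyamine oxidase, had 41 and 45.3 CPM in hot3-2, against 16.3 and 11.3 CPM in WT (log2 fold change 1.64). DELTA-VPE, a vacuolar processing protease known from cell death in the seed coat, had 66 and 57.2 CPM in hot3-2, against 21.7 and 18.4 CPM in WT (log2 fold change 1.62). The remaining rises were those of AT5G60250 (C3HC4 RING finger), AT5G47600 (HSP20-like), AT2G45220 (pectin methylesterase inhibitor family) and RPL23AB, with log2 fold changes of 2.05, 2.04, 1.89 and 1.73.

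Of the 12 largest falls chosen by the same rule, 5 were in the lists of pollen coat and tapetum genes and 1 in the late pollen list. GRP17, the most abundant oleosin of the pollen coat, had 431 and 534 CPM in hot3-2, against 1505 and 1762 CPM in WT, 3.42-fold lower (log2 fold change -1.78 ± 0.08, adjusted p = 4.39e-30). GRP16, GRP14 and GRP20 are neighbours of GRP17 in a cluster of coat oleosin genes on chromosome 5. GRP16 had 34 and 51.2 CPM in hot3-2, against 165 and 153 CPM in WT, and its log2 fold change was -1.96. GRP14 and GRP20 had log2 fold changes of -1.85 and -1.76, again with no overlap between the genotypes. AT5G52160, a lipid-transfer family gene of the tapetum list, had 22.5 and 26 CPM in hot3-2, against 85.2 and 83.6 CPM in WT (log2 fold change -1.80), and AT3G52130 and AT4G33355 of the same annotated family had -1.88 and -1.85.

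The other large falls were not in a list of anther genes, apart from AT5G27870, a pectin methylesterase inhibitor family gene of the late pollen list with 14 and 7.32 CPM in hot3-2, against 32.6 and 41.4 CPM in WT (log2 fold change -1.75). AT5G03350, a legume lectin family gene, had 17 and 3.99 CPM in hot3-2, against 48.2 and 43.7 CPM in WT, so the 2 hot3-2 libraries differed more from each other than the WT libraries did (log2 fold change -2.26 ± 0.42, adjusted p = 2.14e-05). SWEET10, a sugar transporter, had 14 and 19.3 CPM in hot3-2, against 57.3 and 70.3 CPM in WT (log2 fold change -1.95). AT1G27710, a glycine-rich protein, and ASPGB1, an asparaginase, had log2 fold changes of -2.21 and -1.74. All 24 genes named by this rule kept libraries of the 2 genotypes apart, which the rule required.

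**Figure D3:**
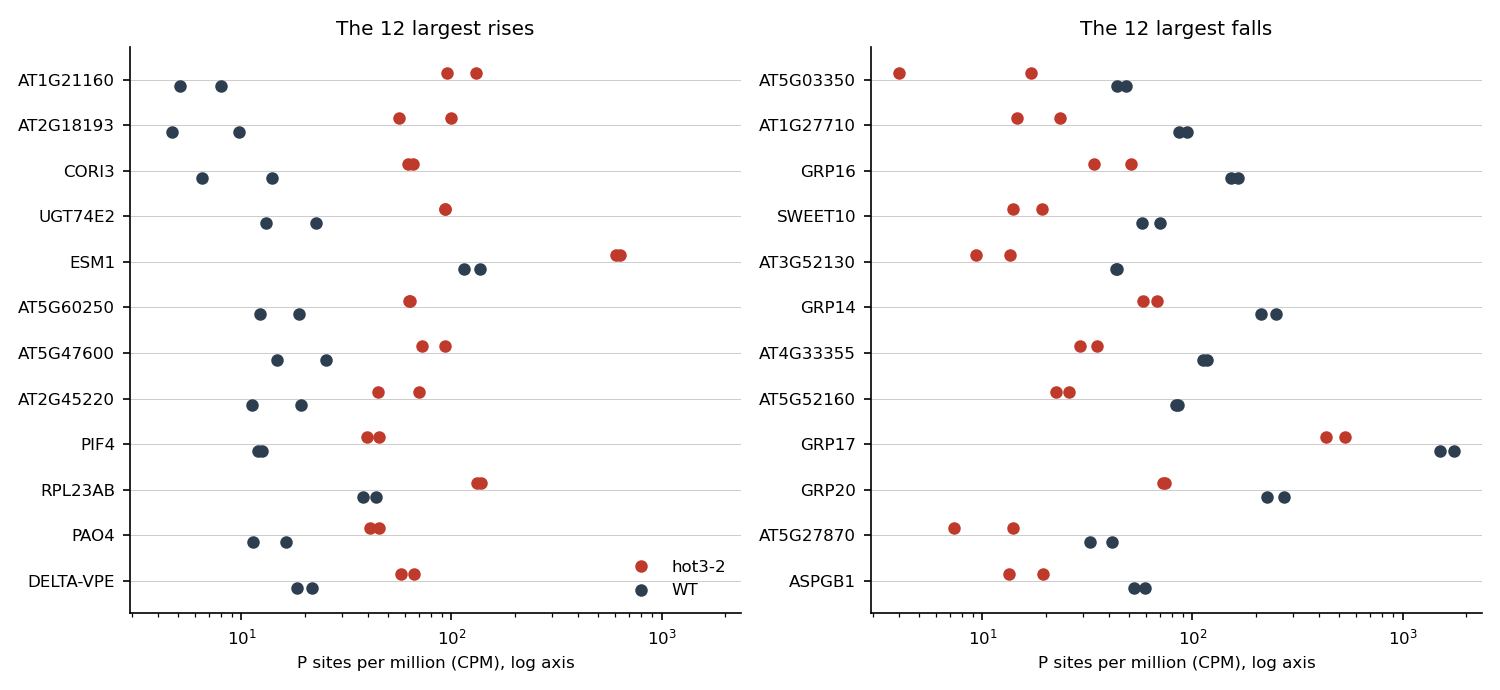
Level in CPM (log axis) of the 12 largest rises, left, and the 12 largest falls, right, by the rule for named genes. Each point is a library, hot3-2 in red and WT in dark blue, offset vertically for sight. The points of the genotypes do not overlap in any row, as the rule required, and GRP17 and ESM1 are the best covered fall and rise.

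Ribosomal proteins as a whole took 8.74% and 8.63% of all nuclear coding-sequence P sites in hot3-2, against 5.66% and 5.66% in WT, a ratio of 1.54. Of 205 tested genes, 140 were higher and 4 lower, with a median log2 fold change of 0.57. Proteins of the large subunit, the one that eIF5B joins, held 5.19% and 5.19% in hot3-2 and 3.12% and 3.04% in WT, and 95 of 115 tested genes were higher and none lower, where 7.34% of all genes were called higher. Their log2 fold changes ran between -0.14 and 2.19, with a median of 0.66. Proteins of the small subunit held 3.55% and 3.44% in hot3-2 and 2.54% and 2.61% in WT, and 45 of 90 tested genes were higher and 4 lower, with a median of 0.41. Both shares were higher in each hot3-2 library than in each WT library. Whether the subunits differed from each other was not tested. Many of these genes have near-identical copies whose reads can be split between them, and among coding sequences with at least 90% unique 28 nt stretches 76 of 92 large subunit genes and 34 of 69 small subunit genes were higher, a restriction chosen after the values were seen.

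The large subunit gene AT2G33370, of the L14 family, had the largest fitted rise at low coverage, 16 and 18 CPM in hot3-2, against 3.26 and 3.90 CPM in WT (log2 fold change 2.19 ± 0.59, adjusted p = 0.00523), and it did not pass without WT replicate 1 (2.06, adjusted p = 0.0725). RPL23AB (AT3G55280), a protein beside the peptide exit, was well covered at 132 and 138 CPM in hot3-2, against 43.5 and 37.9 CPM in WT (log2 fold change 1.73 ± 0.18, adjusted p = 2.45e-12). AT3G14600, of the L18ae family, had 285 and 253 CPM in hot3-2, against 128 and 69.9 CPM in WT, with the WT libraries well apart from each other (log2 fold change 1.5). AT5G47700, a 60S acidic protein of the ribosomal stalk, had 339.6 and 309 CPM in hot3-2, against 109.8 and 128 CPM in WT (log2 fold change 1.46). In the small subunit the largest rises were those of AT3G44010 (S29 family), with 186 and 155 CPM in hot3-2, against 39.5 and 42.6 CPM in WT, and AT1G23410 (an S27a and ubiquitin fusion), with 84.5 and 61.9 CPM in hot3-2, against 27.2 and 29.3 CPM in WT, followed by AT3G53890 (S21e family, log2 fold change 1.28) and AT5G39850 (S4 family, 1.23). The genotypes did not overlap in any of these genes, which is favoured by their choice for large changes. Without the first 15 and last 5 codons, AT3G44010 (0.31, adjusted p = 0.775) and AT5G47700 (0.36, 0.541) were no longer called.

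The 4 small subunit genes that were lower, singled out after their values were seen, were AT2G31610 and AT5G35530, both of the S3 family, AT2G17360 (S4 family) and AT5G02960 (S12/S23 family). AT2G17360 is not of the same family as AT5G39850 above, although both are annotated as S4. AT5G02960 had 605 and 596 CPM in hot3-2, against 718 and 768 CPM in WT (log2 fold change -0.30 ± 0.08, adjusted p = 0.00326), and the other 3 fell by 0.36, 0.34 and 0.43 on the log2 scale. In 28 nt footprints none of the 4 passed, AT5G02960 was at 0.31 (adjusted p = 0.0887), the opposite direction, and 40 small subunit genes were higher and 0 lower.

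Genes of ribosome biogenesis, which act on ribosomal RNA and pre-ribosomes, held 0.833% and 0.791% of P sites in hot3-2 and 0.458% and 0.482% in WT, a ratio of 1.73. Of 49 tested genes, 32 were higher and 0 lower, with a median log2 fold change of 0.73. NUC-L1, the nucleolin that works on ribosomal DNA and RNA, was the best covered, with 2054 and 1842 CPM in hot3-2, against 1134 and 1199 CPM in WT (log2 fold change 0.75 ± 0.06, adjusted p = 3.46e-18). The largest changes were those of AT3G12860, a NOP56-like protein of the box C/D particle that guides RNA methylation, with 41 and 55.2 CPM in hot3-2, against 18.5 and 16.4 CPM in WT (log2 fold change 1.41), and AT1G52930, a Brix domain protein of large subunit assembly, with 171 and 158 CPM in hot3-2, against 54.4 and 73.4 CPM in WT (log2 fold change 1.39). RRP4, a cap subunit of the RNA exosome, had 62.5 and 59.2 CPM in hot3-2, against 23.9 and 26.9 CPM in WT, and AT2G18220, of the Noc2p family known in yeast from export of pre-60S particles, had 75.5 and 92.5 CPM in hot3-2, against 38.4 and 35.9 CPM in WT. FIB2, a fibrillarin of the same box C/D particle, and AT1G50920, a Nog1-like GTPase, had log2 fold changes of 1.12 and 1.10; NUC-L1, FIB2 and AT1G50920 were chosen after their values were seen. All 7 genes were higher in both hot3-2 libraries than in both WT libraries. They were named for large changes or after their values were seen, a choice that favours such separation.

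**Figure D4:**
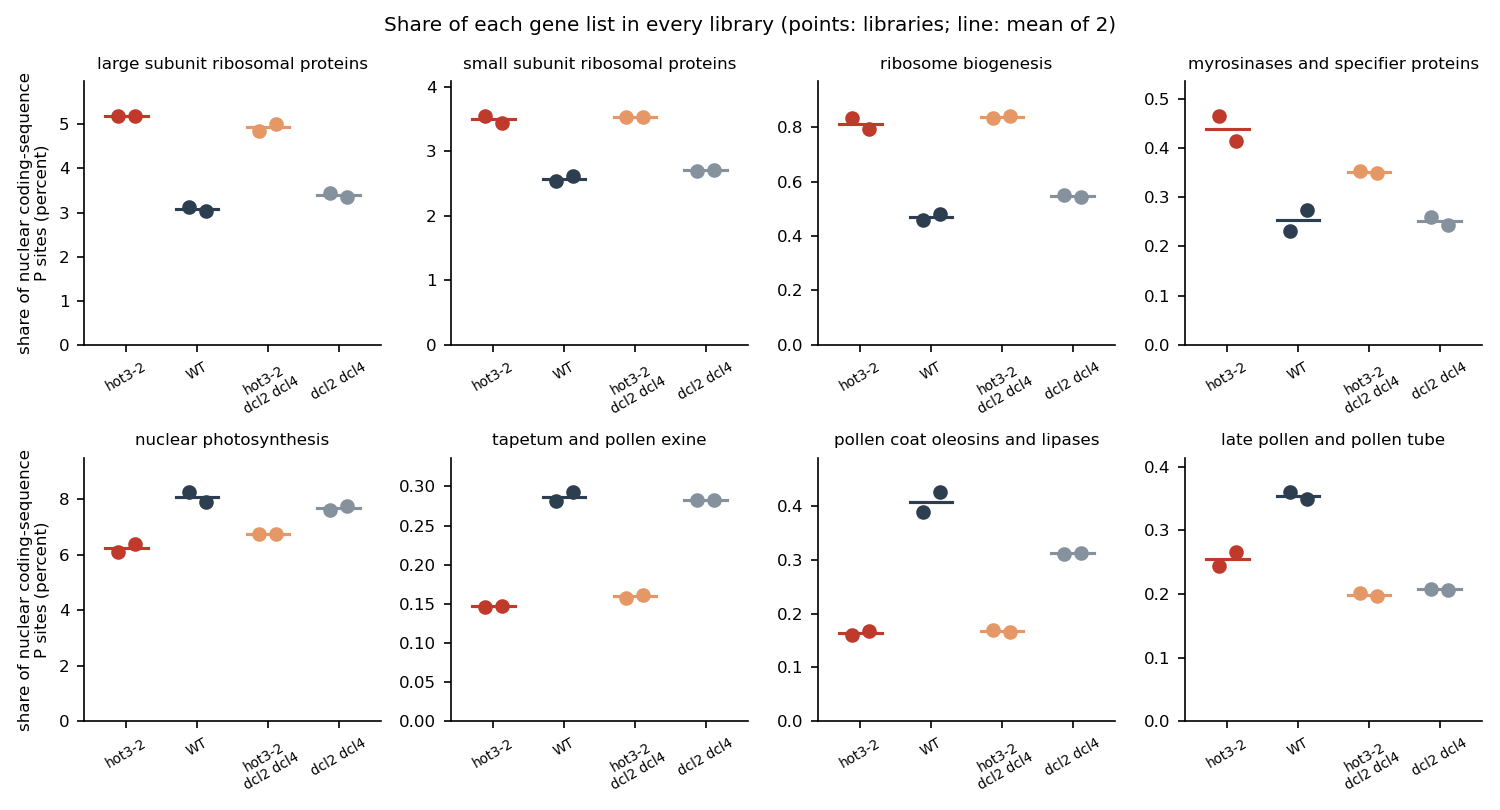
Share of nuclear coding-sequence P sites (percent, vertical axis, from 0) of 8 gene lists in every library. Points are libraries and lines the mean of 2, for hot3-2, WT, hot3-2 dcl2 dcl4 and dcl2 dcl4 from left to right. In the upper row (ribosome and myrosinase lists) the hot3-2 libraries lie above WT, with large subunit ribosomal proteins near 5.19% against 3.12% and 3.04%, and in the lower row (photosynthesis and anther lists) below.

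Because the ribosomal and assembly genes moved together, the promoters of the genes were searched for 4 motifs, in a window of 250 bases before to 50 bases after the gene start on both strands. The telo box, AAACCCTA, was found in 6.04% of the promoters of all genes tested. It was found in 48.7% of large subunit, 45.6% of small subunit and 51% of biogenesis genes. Of genes called higher in hot3-2, 19.9% held it, and 12.2% of those outside the lists, against 2.43% of genes called lower. The site II element, TGGGCC, was also more frequent in these lists, with 73%, 56.7% and 59.2% for large subunit, small subunit and biogenesis genes, 34.7% of genes called higher, 15.1% of genes called lower and 19.7% of all genes tested. A total of 400 promoters held both, in no case overlapping. The median log2 fold change with and without a telo box was 0.73 and 0.63 for large subunit, 0.40 and 0.47 for small subunit and 0.93 and 0.68 for biogenesis genes, and 0.25 and -0.02 for all genes tested. The shares describe these windows and carry no test. The telo boxes shown are those of 5 named genes, 3 ribosomal protein and 2 biogenesis genes with large rises. Each began after the annotated gene start, at base 34 in AT3G44010, 38 in AT2G33370, 27 in AT3G14600, 3 in AT3G12860 and 2 in RRP4. They are given 5′ to 3′ in the direction of the gene, with the motif in capitals (TAGGGTTT is its reverse complement) and TAIR10 coordinates:
AT3G44010, chr3:15801178-15801201, minus strand: taaatttcTAGGGTTTtgaagagt
AT2G33370, chr2:14144717-14144736, minus strand: ataggtttAAACCCTAatcc
AT3G14600, chr3:4910648-4910671, plus strand: acggccccTAGGGTTTgtccttta
AT3G12860, chr3:4091562-4091585, plus strand: ataaccttAAACCCTAatttctct
RRP4, chr1:824511-824534, plus strand: ataacacaAAACCCTAgaattcat

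Among translation factors other than eIF5B, fewer genes were called. Of 47 tested initiation factors and poly(A)-binding proteins, 16 were higher and 0 lower, with a median log2 fold change of 0.30, and 9 of 44 were higher without the ends of the coding sequence. AT4G27130, a SUI1 (eIF1) gene whose product keeps start codon choice strict, had 147 and 124 CPM in hot3-2, against 42.8 and 53.9 CPM in WT (log2 fold change 1.51 ± 0.18, adjusted p = 8.99e-11). TIF3H1, the h subunit of eIF3, had few counts, 18 and 10.6 CPM in hot3-2, against 4.71 and 4.30 CPM in WT (log2 fold change 1.64 ± 0.52, adjusted p = 0.0202), and did not pass without hot3-2 replicate 1 (1.23, adjusted p = 0.288), WT replicate 1 (1.71, 0.112) or WT replicate 2 (1.59, 0.107). AT3G02200, a PCI domain protein of the eIF3 m subunit type, had 40.5 and 31.3 CPM in hot3-2, against 13.8 and 13.7 CPM in WT (log2 fold change 1.39), and TRIP-1, the eIF3 i subunit, had 68.5 and 76.5 CPM in hot3-2, against 34.8 and 32 CPM in WT (log2 fold change 1.10). Neither AT3G02200 nor TRIP-1 passed without the ends of the coding sequence.

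Elongation and termination factors moved by small amounts, with 6 of 15 tested genes higher, 0 lower and a median log2 fold change of 0.18. ABCE2, the ATPase that splits and recycles ribosomes, had 385 and 392 CPM in hot3-2, against 221 and 269 CPM in WT (log2 fold change 0.68 ± 0.11, adjusted p = 5.92e-07). AT1G07930 and AT1G07940, 2 copies of eEF1A that bring tRNA to the ribosome, each had a log2 fold change of 0.43, but only 21% and 6.88% of their 28 nt stretches were unique, so their footprints cannot be assigned to 1 copy. AT5G19510, an eEF1B subunit, had a log2 fold change of 0.31 (adjusted p = 0.00926) and did not pass without hot3-2 replicate 1 (0.30, adjusted p = 0.0931) or WT replicate 1 (0.27, 0.0831).

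Lists of anther genes went the other way. Pollen coat genes held 0.160% and 0.167% of P sites in hot3-2 and 0.389% and 0.425% in WT, a ratio of 0.402. Of 12 tested genes, 9 were lower and 0 higher, where 7.1% of all genes were called lower, and the median log2 fold change was -1.36. The other 3 genes had positive log2 fold changes, the highest 1.153, and did not pass. The 9 were 6 coat oleosins, GRP14 and GRP16 to GRP20, and 3 extracellular lipases, EXL6, EXL4 and AT1G75880. EXL6 had 193 and 195 CPM in hot3-2, against 431 and 436 CPM in WT (log2 fold change -1.16) and EXL4 had 264 and 248 CPM in hot3-2, against 498 and 541 CPM in WT (log2 fold change -1.01). The lipase gene AT1G75900, of the same cluster, did not pass, with 216 and 239.6 CPM in hot3-2, against 211 and 187 CPM in WT (log2 fold change 0.18, adjusted p = 0.365). The summed level of the list was 1585 and 1700.4 CPM in hot3-2 and 4002 and 4298 CPM in WT. EXL6, EXL4, AT1G75880 and AT1G75900 were chosen after their values were seen.

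Genes of the tapetum and pollen exine, the sculpted outer wall, held 0.147% and 0.147% in hot3-2 and 0.281% and 0.292% in WT. Of 28 tested genes of 32, 15 were lower and 0 higher, with a median log2 fold change of -0.87. AT5G62080, a lipid-transfer family gene, had 149.5 and 176 CPM in hot3-2, against 489 and 499 CPM in WT, 3.07-fold lower (log2 fold change -1.62 ± 0.11, adjusted p = 6.83e-20). The AT-hook gene AT2G42940 had the largest fitted fall, 3.50 and 3.99 CPM in hot3-2, against 17.4 and 21.9 CPM in WT (log2 fold change -2.30 ± 0.62, adjusted p = 0.00478), and did not pass without hot3-2 replicate 1 (-2.18, adjusted p = 0.115). DRL1, a reductase of sporopollenin synthesis, had 29.5 and 24.6 CPM in hot3-2, against 64.5 and 76.9 CPM in WT (log2 fold change -1.35).

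Other steps of the sporopollenin route moved the same way, in genes named after their values were seen. ACOS5, the acyl-CoA synthetase that starts it, and LAP6, a polyketide synthase, had log2 fold changes of -1.27 and -1.30, with 97.5 and 100.5 CPM in hot3-2, against 245 and 242 CPM in WT for LAP6. AMS, a bHLH factor that drives tapetal genes, had 79.5 and 87.8 CPM in hot3-2, against 169 and 174 CPM in WT (log2 fold change -1.04). MS2, a fatty acyl reductase of exine formation, did not pass (log2 fold change -0.43, adjusted p = 0.0588). The summed level of the list was 1452 and 1499 CPM in hot3-2 and 2896 and 2959 CPM in WT. DYT1, TDF1 and TPD1, which act early in tapetum fate, had too few counts to be tested.

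Genes of late pollen and pollen tubes held 0.244% and 0.266% in hot3-2 and 0.360% and 0.350% in WT, with 14 of 33 tested genes lower, 0 higher and a median log2 fold change of -0.62. AT1G29140, of the Pollen Ole e 1 family, had 121 and 159 CPM in hot3-2, against 393 and 313 CPM in WT (log2 fold change -1.37 ± 0.13, adjusted p = 8.74e-14). AGP6, an arabinogalactan protein of pollen, had 15 and 18.6 CPM in hot3-2, against 50 and 37.5 CPM in WT (log2 fold change -1.38), and AT5G45880, another Ole e 1 gene, had 9.50 and 14 CPM in hot3-2, against 27.2 and 26.6 CPM in WT (log2 fold change -1.24). Without hot3-2 replicate 1 neither passed, at -1.20 (adjusted p = 0.0563) for AGP6 and -0.92 (0.262) for AT5G45880. The summed level of the list was 2417 and 2701 CPM in hot3-2 and 3704 and 3537 CPM in WT. The 3 anther lists were lower in both hot3-2 libraries than in both WT libraries, and the part of tissue makeup in the other results was not tested. In dcl2 dcl4, which lacks the hot3-2 mutation, the late pollen list held 0.209% and 0.206%, less than in hot3-2 or WT. The tapetum list (0.282% and 0.283%) and pollen coat list (0.310% and 0.313%) held more in dcl2 dcl4 than in hot3-2. The cause of the low late pollen share in dcl2 dcl4 was not tested.

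Nuclear genes of photosynthesis held 6.10% and 6.41% of P sites in hot3-2 and 8.25% and 7.91% in WT, a ratio of 0.774. Of 61 tested genes, 53 were lower and 2 higher, with a median log2 fold change of -0.57. All 19 light-harvesting genes, counting PsbS, were lower, with a median of -0.81, and they held 2.06% and 2.16% in hot3-2 against 3.02% and 3.09% in WT. The other parts of the chain were 9 lower and 1 higher of 12 photosystem I genes (median -0.59) and 8 lower and 1 higher of 10 photosystem II genes (median -0.59). Of 12 carbon fixation genes, 10 were lower (median -0.42), and of 8 genes of electron carriers, the cytochrome complex and the ATP synthase, 7 were lower (median -0.72). These subgroups were formed after the values of the list were seen.

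Among light-harvesting genes, LHCA4, an antenna protein of photosystem I, had 1041 and 1267 CPM in hot3-2, against 2341 and 2403 CPM in WT (log2 fold change -1.06 ± 0.06, adjusted p = 4.83e-26). LHCB3, an antenna of photosystem II named after its values were seen, had 1816 and 1871 CPM in hot3-2, against 3770.0 and 3770.5 CPM in WT (log2 fold change -1.03). LHCB2.1 had 296 and 357 CPM in hot3-2, against 749 and 809 CPM in WT (log2 fold change -1.27), and 61.3% of its 28 nt stretches were unique. NPQ4, which is PsbS and senses excess light, had 68.5 and 75.2 CPM in hot3-2, against 161 and 147 CPM in WT (log2 fold change -1.10). The genotypes did not overlap in any of the 4, which is favoured by their choice for large changes or after their values were seen.

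PSBQ-2, an oxygen-evolving protein of photosystem II, had the largest fall of the list at a lower level, 15.5 and 13.3 CPM in hot3-2, against 40.2 and 41.4 CPM in WT (log2 fold change -1.47 ± 0.33, adjusted p = 4.36e-04). The most abundant member, RBCS1A, a small subunit of Rubisco, had 11674 and 13332 CPM in hot3-2, against 15258 and 12568 CPM in WT, so that its libraries overlapped (log2 fold change -0.16). The pair of genes that were higher were PSAL and PSBO1, both, like RBCS1A, named after their values were seen. PSAL had 1899 and 1868 CPM in hot3-2, against 1326 and 1439 CPM in WT, a log2 fold change of 0.45, but in 28 nt footprints alone it was -0.49 (adjusted p = 2.13e-06), the opposite direction. PSBO1 had a log2 fold change of 0.15.

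The I-box, GATAAG, was found in 45.9% of the promoters of tested photosynthesis genes, against 14.7% of all genes tested, and the G-box, CACGTG, in 31.1% against 8.94%. Of genes called lower in hot3-2, 17.1% held the I-box and 12.1% the G-box. The median log2 fold change of photosynthesis genes was -0.51 with and -0.65 without an I-box, and -0.70 with and -0.47 without a G-box. For all genes tested it was 0.015 with and -0.003 without an I-box, and -0.013 with and 0.001 without a G-box. No promoter of the list held a telo box. Relative to the annotated gene start, the I-box of LHCB2.1 began at base -221 and that of LHCA4 at base 4, after the start. The I-boxes of 2 named light-harvesting genes are shown 5′ to 3′ in the direction of the gene, with the motif in capitals and TAIR10 coordinates:
LHCB2.1, chr2:1824688-1824709, minus strand: ttatataaGATAAGattcacat
LHCA4, chr3:17495016-17495037, minus strand: gataaaccGATAAGcctgtatc

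Organelle genes were kept apart from these counts. Their shares were taken of all coding-sequence P sites, including those of AT2G01021, an open reading frame in ribosomal DNA that the nuclear counts left out. AT2G01021 held 361464 and 348265 P sites in hot3-2 and 373133 and 598053 in WT, so the organelle shares also depend on it. Chloroplast genes took 6.98% and 6.66% of this total in hot3-2, against 7.41% and 7.43% in WT. Mitochondrial genes took 1.26% and 1.10% in hot3-2, against 0.784% and 0.766% in WT. Nuclear genes of the respiratory chain were 4 higher (15.4%) and 2 lower (7.69%) of 26, with a median of 0.01. Of all genes, 7.34% were called higher and 7.1% lower. AOX1A, the alternative oxidase that rises when the chain is impaired, had 137 and 127 CPM in hot3-2, against 60.2 and 63.6 CPM in WT (log2 fold change 1.10 ± 0.16, adjusted p = 1.42e-07). SDH2-1 of complex II and ATP5 of the ATP synthase had log2 fold changes of -0.73 and -0.63, and without hot3-2 replicate 2 neither passed (-0.50, adjusted p = 0.0504, and -0.39, adjusted p = 0.0522). AT2G47380, a cytochrome c oxidase subunit, had 0.77 and lost its call without hot3-2 replicate 2 (0.63, adjusted p = 0.148), WT replicate 1 (0.80, 0.0669) or WT replicate 2 (0.75, 0.0761).

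Of the cytoskeleton genes, 3 of 4 tested actins were lower. ACT7, the main vegetative actin, had 899.7 and 913 CPM in hot3-2, against 1429.6 and 1387 CPM in WT (log2 fold change -0.64 ± 0.06, adjusted p = 5.25e-13), ACT11, an actin of reproductive organs, had 145 and 141 CPM in hot3-2, against 236 and 256 CPM in WT (log2 fold change -0.78), and ACT8 had a log2 fold change of -0.56, which did not pass without hot3-2 replicate 1 (-0.45, adjusted p = 0.0507). Of 15 tested tubulins, 7 were lower and 0 higher, with a median of -0.17. TUB1, TUB8 and TUB6 had log2 fold changes of -0.63, -0.48 and -0.46. TUB5 had 959 and 1067 CPM in hot3-2, against 1382 and 1056 CPM in WT, so its libraries overlapped, and its log2 fold change of -0.27 did not pass without hot3-2 replicate 1 (-0.18, adjusted p = 0.263) or WT replicate 1 (-0.07, adjusted p = 0.663).

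Genes of DNA replication and the cell cycle gave no call at 0.05, with 0 of 17 tested and a median of 0.02 by limma voom, where 2 had an unadjusted p under 0.05, and 0 were called by limma-trend. RNR1, the large subunit of ribonucleotide reductase, had 284 and 290.2 CPM in hot3-2, against 234 and 240.1 CPM in WT (log2 fold change 0.28, adjusted p = 0.0785) and passed in 4 alternatives, without the ends of the coding sequence (0.33, adjusted p = 0.0328), without the first codon (0.30, 0.0442), with total counts for scaling (0.30, 0.0472) and at a mean of at least 50 counts (0.29, 0.0348). Of 40 tested histones, 9 were lower and 2 higher, with a median of -0.23. The lower genes with the largest changes were HTB11 and HTB9 (H2B), HIS4 (H4) and AT3G27360 (H3), with log2 fold changes of -0.91, -0.65, -0.71 and -0.70, and AT3G27360 did not pass without hot3-2 replicate 1 (-0.47, adjusted p = 0.0697). The 2 higher genes, singled out after the values were seen, were the linker histones AT1G06760 and AT2G30620, with 0.29 and 0.56. Only 28 of the 40 have a largely unique coding sequence, and 2 of these were lower and 2 higher.

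Among 37 tested heat shock proteins and chaperones, 14 were lower and 4 higher, with a median of -0.16. HSP70 (AT3G12580), a heat-induced cytosolic chaperone, had 8.50 and 11.3 CPM in hot3-2, against 32.3 and 32.4 CPM in WT (log2 fold change -1.72) and did not pass without hot3-2 replicate 1 (-1.48, adjusted p = 0.0518). AT3G09440, another cytosolic HSP70, had 455 and 526 CPM in hot3-2, against 869 and 863 CPM in WT (log2 fold change -0.83 ± 0.08, adjusted p = 1.00e-13), and cpHsc70-2 of the chloroplast had a log2 fold change of -0.74. CR88, the chloroplast HSP90, went the other way with 245 and 182 CPM in hot3-2, against 108 and 101 CPM in WT (log2 fold change 1.04).

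Cold- and abscisic acid-responsive genes were 6 lower and 0 higher of 9 tested, with a median of -0.48. The dehydrins COR47 and ERD10 led, COR47 with 751 and 697 CPM in hot3-2, against 1089.7 and 1128 CPM in WT (log2 fold change -0.61 ± 0.07, adjusted p = 1.53e-10) and ERD10 with a log2 fold change of -0.60. COR15A and COR15B, chloroplast proteins that protect membranes in the cold, had -0.48 and -0.54, and COR15B did not pass without hot3-2 replicate 1 (-0.43, adjusted p = 0.0671). Of 3 tested defence markers 0 passed by limma voom, 1 had an unadjusted p under 0.05, and 0 were called by limma-trend. PR5 had 37 and 42.6 CPM in hot3-2, against 52.2 and 45.7 CPM in WT, and PR4 had 8.00 and 9.32 CPM in hot3-2, against 10.5 and 2.34 CPM in WT, with the hot3-2 libraries inside the WT range.

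Jasmonate genes moved in both directions, 6 higher and 3 lower of 24. LOX2, a chloroplast lipoxygenase at the start of the pathway, had 371 and 371 CPM in hot3-2, against 201 and 228 CPM in WT (log2 fold change 0.79 ± 0.11, adjusted p = 7.96e-09), and TIFY10B, the JAZ2 repressor, had 48 and 59.9 CPM in hot3-2, against 19.9 and 17.6 CPM in WT (log2 fold change 1.49). TIFY10B did not pass without the ends of the coding sequence (0.26, adjusted p = 0.807) or without the first codon (0.47, 0.507). AOC4, an allene oxide cyclase, and JMT, which makes methyl jasmonate, were lower, with log2 fold changes of -0.76 and -0.99, and without hot3-2 replicate 1 neither passed (-0.44, adjusted p = 0.127, and -0.47, adjusted p = 0.379). The 2 hot3-2 libraries of JMT were apart from each other, at 22.5 and 42.6 CPM, against 57.6 and 61.3 CPM in WT.

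Glucosinolates are the sulphur compounds of mustards, and myrosinases break them down when tissue is damaged. Myrosinases and specifier proteins, which set the products, were 5 higher and 0 lower of 9 tested, with a median of 0.39, and held 0.465% and 0.413% of P sites in hot3-2 and 0.232% and 0.273% in WT. TGG1 and TGG2, the shoot myrosinases, had 945 and 905 CPM in hot3-2, against 514 and 513 CPM in WT for TGG1 (log2 fold change 0.85 ± 0.08, adjusted p = 2.88e-15) and 1649 and 1413 CPM in hot3-2, against 757 and 994 CPM in WT for TGG2 (log2 fold change 0.84 ± 0.07, adjusted p = 5.01e-16). ESP, the epithiospecifier, had 42 and 29.9 CPM in hot3-2, against 10.9 and 16 CPM in WT (log2 fold change 1.46), and did not pass in 28 nt footprints (1.26, adjusted p = 0.101). ESM1, described above, had the largest change of the list.

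Genes that make and move glucosinolates were 3 higher (15.8%) and 1 lower (5.26%) of 19, where 7.34% of all genes were called higher and 7.1% lower. IIL1, an isopropylmalate isomerase subunit of leucine and aliphatic glucosinolate synthesis, had 989 and 1105 CPM in hot3-2, against 727 and 667 CPM in WT (log2 fold change 0.58 ± 0.07, adjusted p = 7.03e-10). The cytochromes CYP83A1 and CYP79F1 of the aliphatic pathway had log2 fold changes of 0.76 and 2.06, CYP79F1 with only 15 and 6.66 CPM in hot3-2, against 2.17 and 2.73 CPM in WT. CYP83A1 did not pass without hot3-2 replicate 1 (0.71, adjusted p = 0.12) or WT replicate 2 (0.70, 0.083), and CYP79F1 did not pass without hot3-2 replicate 1 (1.42, 0.381), WT replicate 1 (1.90, 0.191) or WT replicate 2 (2.22, 0.143). GTR2, a glucosinolate transporter, was lower (log2 fold change -0.54).

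Genes of phenylpropanoid and flavonoid synthesis were 8 lower and 0 higher of 20, with a median of -0.32. PAL1, which opens the pathway, had 404 and 423 CPM in hot3-2, against 635 and 662 CPM in WT (log2 fold change -0.65 ± 0.09, adjusted p = 1.08e-08), and PAL2 and OMT1, an O-methyltransferase, had log2 fold changes of -0.64 and -0.61. F3H, a flavonoid hydroxylase, had -0.88 and did not pass without hot3-2 replicate 1 (-0.66, adjusted p = 0.169). Of 29 wax and cutin genes, 5 were lower (17.2%) and 2 higher (6.9%), where 7.1% of all genes were called lower and 7.34% higher. CYP96A15, the midchain alkane hydroxylase of wax, had 534 and 498 CPM in hot3-2, against 802 and 862 CPM in WT (log2 fold change -0.68 ± 0.08, adjusted p = 2.16e-10), PEL3, an acyltransferase needed for the cuticle, had -0.42, and KCS1, a fatty acid elongase, had 0.42. GPAT8, a cutin acyltransferase, had -0.43 and lost its call without hot3-2 replicate 1 (-0.33, adjusted p = 0.329), hot3-2 replicate 2 (-0.50, 0.0552) or WT replicate 2 (-0.24, 0.408).

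Small RNA genes gave 1 call, with 12 of 20 tested, 0 higher and 1 lower (8.33%), near the 7.1% of all genes called lower. AGO5, an Argonaute of reproductive tissue, had 59.5 and 53.2 CPM in hot3-2, against 78.3 and 95.3 CPM in WT (log2 fold change -0.60 ± 0.19, adjusted p = 0.0216) and did not pass without hot3-2 replicate 1 (-0.69, adjusted p = 0.0922), hot3-2 replicate 2 (-0.53, 0.134) or WT replicate 2 (-0.46, 0.19).

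P sites in the first 15 and last 5 codons made up a larger share in hot3-2 than in WT, and the test was repeated without them. Without these codons 1639 of 12663 genes were called (12.9%), 826 higher (6.52%) and 813 lower (6.42%). Of the 1921 genes first called, 1885 could be tested again, 1513 were called in the same direction and 36 changed sign. Among the lists with the most calls, 84 of 111 large subunit and 39 of 87 small subunit ribosomal proteins and 33 of 48 biogenesis genes were higher, and 52 of 61 photosynthesis, 13 tapetum and 9 pollen coat genes were lower. The median of the jasmonate list was 0.03 without the ends, against -0.02, that of the small RNA list 0.05, against -0.02, and that of the DNA replication list -0.01, against 0.02. Some single genes had most of their rise in the ends. AT3G44010 had 359 and 217 P sites in the end codons and 13 and 16 in the rest in hot3-2, against 90 and 92 in the end codons and 19 and 17 in the rest in WT, and its log2 fold change without the ends was 0.31 (adjusted p = 0.775). AT5G47700 had 642 and 425 in the ends and 37 and 40 in the rest in hot3-2, against 260 and 277 in the ends and 43 and 51 in the rest in WT (0.36 without the ends, adjusted p = 0.541). TIFY10B, TRIP-1 and AT3G02200 also no longer passed, at 0.26, 0.45 and 0.75.

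In the photosynthesis list the change differed between the ends and the rest in 2 genes chosen after their values were seen. LHCB6, a minor antenna of photosystem II, had 1934 and 1603 P sites in the ends and 1324 and 1136 in the rest in hot3-2, against 1872 and 1681 in the ends and 3848 and 3630 in the rest in WT. Its log2 fold change was -0.28 over the whole coding sequence and -0.95 without the ends. PSBY, a small photosystem II protein, had -0.01 and -0.85, the first not called (adjusted p = 0.972) and the second called (adjusted p = 8.35e-06).

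**Figure D5:**
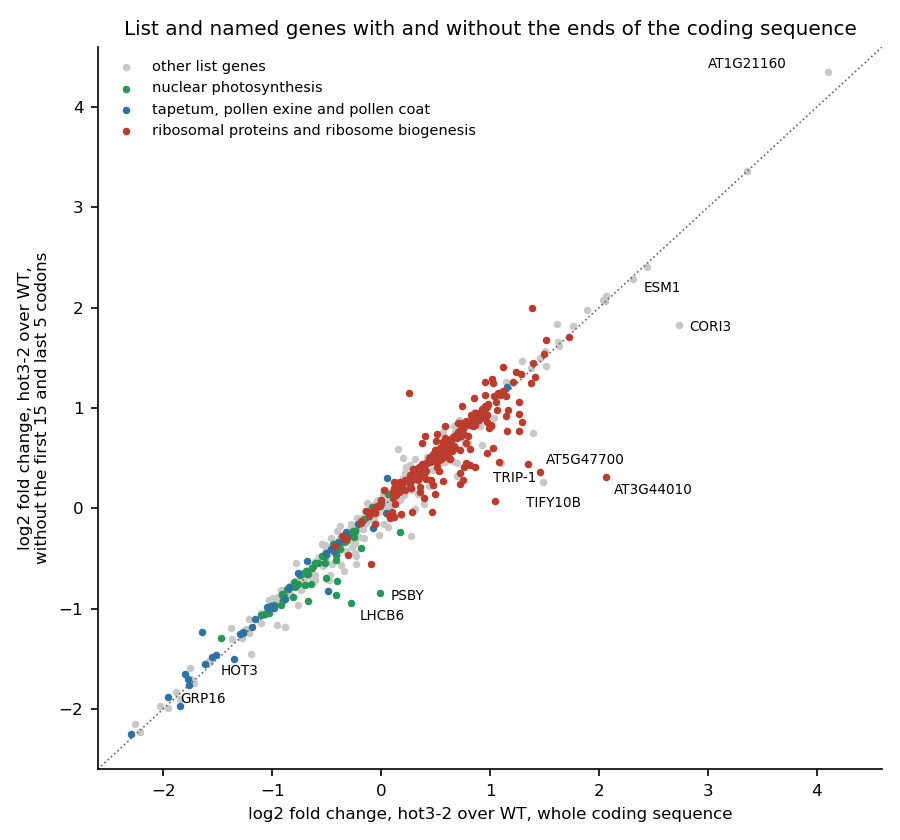
log2 fold change of hot3-2 over WT over the whole coding sequence (horizontal axis) and without its first 15 and last 5 codons (vertical axis) for genes of the lists and named genes tested in both. Each point is a gene, coloured by list, and the dotted line marks equal values. Most points lie near the line, AT3G44010, AT5G47700, TIFY10B and TRIP-1 lie below it, under 0.5 on the vertical axis, and LHCB6 and PSBY lie below it with values of -0.95 and -0.85.

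In 28 nt footprints, which hold fewer counts, 1149 of 10225 genes were called (11.2%), 589 higher (5.76%) and 560 lower (5.48%). Of the 1921 genes first called, 1851 could be tested, 1037 were called in the same direction and 17 changed sign. Large subunit ribosomal proteins were 76 higher and 0 lower of 112, biogenesis genes 31 higher and 0 lower, photosynthesis genes 50 lower, tapetum genes 11 lower and pollen coat genes 9 lower of 10. Late pollen genes were 7 lower in place of 14. Of the named genes called over all lengths, ACT8, AGO5, AT2G42940, AT5G19510, AT5G45880, CYP79F1, CYP83A1, ESP, F3H, GPAT8, JMT and PI did not pass in 28 nt footprints. In all, 940 genes were called in the same direction in all 3 counts, 453 higher and 487 lower.

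The same mutation could be read in libraries that share none with this comparison. In hot3-2 dcl2 dcl4 against dcl2 dcl4, 1187 of 13303 genes were called (8.92%), 572 higher (4.3%) and 615 lower (4.62%), at lower depth. Large subunit ribosomal proteins were 79 higher and 0 lower, with a median of 0.57, and small subunit ones 37 higher and 7 lower, with a median of 0.36. Biogenesis genes were 24 higher and 0 lower. Tapetum genes were 14 lower, with a median of -0.74, and pollen coat genes 8 lower, with -0.85. HOT3 had a log2 fold change of -2.15 there, AT1G21160 4.00, GRP17 -1.43 and ESM1 1.61.

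Photosynthesis genes were 30 lower and 1 higher, with a median of -0.28, and 10 of 19 light-harvesting genes were lower, with -0.22. Initiation factors were 11 higher and 4 lower, elongation factors 2 higher, myrosinases and specifier proteins 3 higher, with a median of 0.06, and actins 1 lower. Glucosinolate synthesis and cold lists had medians of 0.52 and -0.53, and the floral identity list had 0.45, against -0.25 for hot3-2 over WT. Late pollen genes were 2 lower and 1 higher, and held 0.201% and 0.197% of P sites in hot3-2 dcl2 dcl4 and 0.209% and 0.206% in dcl2 dcl4. The difference of the hot3-2 effect between the backgrounds was tested gene by gene as an interaction, which called 146 genes (1.1%). The lists held 14 photosynthesis, 11 large subunit, 5 small subunit, 3 elongation factor, 3 late pollen, 2 biogenesis and 2 myrosinase genes with such a difference, and none of the tapetum list. RPL23AB had the largest such difference among ribosomal protein genes, with a log2 fold change of 0.39 in the dcl2 dcl4 background against 1.73 for hot3-2 over WT. Among small subunit genes it was that of AT5G59850 (S8 family), singled out after the values were seen, with 1941 and 1919 CPM in hot3-2, against 925 and 899.7 CPM in WT, but 1466 and 1498 CPM in hot3-2 dcl2 dcl4 and 1571 and 1430.0 CPM in dcl2 dcl4.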

How the data were processed

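Ribo-seq footprints of 8 inflorescence libraries, 2 of each of 4 genotypes, were analysed. The deposited files list 1 line per footprint, with its ends and P site on 1 transcript per gene, on no normalised scale. Per the labels, the authors trimmed reads with cutadapt and mapped them with STAR. They set the P-site offset of each footprint length from plots around start and stop codons, with RiboTaper. Lines with the P site in the coding sequence were counted per gene. Of 22567 transcripts, 22384 nuclear ones were used. Organelle genes were dropped, and so were 32 nuclear transcripts whose coding-sequence length did not match the annotation or was not in whole codons. AT2G01021, an open reading frame in ribosomal DNA, was dropped apart from these. It held 361464 and 348265 P sites in hot3-2 and 373133 and 598053 in WT.

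Genes were tested where 2 or more libraries held the equivalent of 10 counts at median depth, and all 8 together held 15. Counts were scaled by the trimmed mean of M values (30% and 5% trims, own script) and fitted with limma voom 3.58.1 in R 4.3.3 over all 8 libraries, with 1 mean per genotype, 4 residual degrees of freedom and Benjamini-Hochberg adjustment over all genes. A prior count of 0.5 entered the log2 values. An exact permutation test of 2 against 2 cannot go below p = 0.333. The fit was repeated without the first 15 and last 5 codons and in 28 nt footprints. The scripts were tested on simulated data. Offsets for 27 nt footprints differed in hot3-2 replicate 2, so their frame is not comparable.

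Genes were named by rule: the eIF5B genes, the 12 largest rises and 12 largest falls among genes called in all 3 counts with at least 50 counts on average and genotypes apart, and in each of 25 lists the 4 called genes with the largest change, or the 2 best covered where none passed. Members and lists were chosen with earlier results of these data known. Promoter sequence was read from the RefSeq TAIR10 genome.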

Additional observations from a re-analysis of the deposited data

Results flagged for a closer look

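The effect of hot3-2 differed between the dcl2 dcl4 and the WT background, by the interaction test of limma voom, in 12 of the named genes. The difference is given as the log2 fold change in the dcl2 dcl4 background minus that in the WT background. These genes were named for large changes in hot3-2 over WT, a choice that favours a smaller change in the other background. It was -0.70 for ESM1 (adjusted p = 0.00727), with 1.61 in the dcl2 dcl4 background and 2.31 in the WT background. It was -1.33 for RPL23AB (adjusted p = 0.000788), with 0.39 and 1.73, -1.19 for AT3G14600 (adjusted p = 0.000696), with 0.31 and 1.5, and -1.02 for AT3G44010 (adjusted p = 0.0123), with 1.05 and 2.06. Both eEF1A copies had a difference, -0.36 for AT1G07930 (adjusted p = 0.000192) and -0.40 for AT1G07940 (adjusted p = 2.07e-05), and their footprints cannot be told apart. IIL1 had -0.52 (adjusted p = 0.00103), with 0.05 and 0.58.

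Among the genes lower in hot3-2, the difference was 0.92 for GRP20 (adjusted p = 0.0184), with -0.84 in the dcl2 dcl4 background and -1.76 in the WT background, and 0.91 for AT1G29140 (adjusted p = 0.0172), with -0.45 and -1.37. It was 0.86 for LHCB2.1 (adjusted p = 5.36e-06), with -0.41 and -1.27, 0.44 for LHCA4 (adjusted p = 0.00103), with -0.63 and -1.06, and 0.36 for ACT7 (adjusted p = 0.0328), with -0.28 and -0.64. The cause of these differences was not tested.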

How the results depend on the processing

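Of 1921 called genes, 1251 were called without hot3-2 replicate 1 and up to 1491 when another library was left out. In 28 nt footprints there were 1149, and 379 at an adjusted p under 0.01 with at least 2-fold change. Without hot3-2 replicate 1, 61.9% of calls were higher, against 50.8%. The other settings that kept both replicates of hot3-2 and of WT gave 1390 (equal depth) to 1963 (replicate block) calls. Replicate numbers did not pair the samples: deviations of hot3-2 and WT libraries with the same number correlated at -0.0104, and the block is no paired test. Over the alternatives, large subunit ribosomal proteins gave 76 to 95 higher genes, small subunit 34 to 48, biogenesis 27 to 34, and lower genes were 41 to 55 for photosynthesis, 10 to 15 for tapetum and 8 to 9 for pollen coat, the lowest numbers partly because fewer genes were tested. Of 102 named genes tested, 72 kept direction and side of the threshold in every alternative. PR4, not called, was at -0.27 (adjusted p = 0.821) without WT replicate 2 and at up to 1.80 without another library, against 0.72 over all libraries. Genes with few P sites, and 2 libraries per genotype, limit precision, and P sites are not independent molecules.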

Other observations

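Groups of genes with the same annotation and at least 15 tested genes, including any that were in the lists, were described by their counts and medians, with no test, for the 5 lowest and 5 highest medians of 78. Over all genes tested, 7.34% were higher and 7.1% lower in hot3-2. The lowest was the family of bifunctional inhibitors, lipid-transfer proteins and seed storage albumins, small cysteine-rich secreted proteins, with 10 of 39 genes lower, 0 higher and a median log2 fold change of -0.51, and 4 of the 39 were in the lists. Its median was -0.65 in hot3-2 dcl2 dcl4 over dcl2 dcl4. The Pollen Ole e 1 family had 7 of 15 lower, 3 of the 15 in the lists, with a median of -0.39, and -0.27 in the dcl2 dcl4 background. Invertase and pectin methylesterase inhibitors of 1 annotation had 4 of 22 lower and 1 higher, 7 of the 22 in the lists, with a median of -0.32, and -0.08 in the dcl2 dcl4 background. Nucleotide-sugar transporters, which feed sugars into the Golgi, had 3 of 17 lower, with a median of -0.47, and -0.25 in the dcl2 dcl4 background. The core-2/I-branching glycosyltransferases had 0 of 15 called, and their median of -0.40 was 0.09 in 28 nt footprints and 0.21 in the dcl2 dcl4 background.

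At the other end, 20 genes annotated as transducin family/WD-40 repeat proteins, scaffolds of many complexes, had 5 higher and 1 lower, with a median of 0.54, and 0.48 in the dcl2 dcl4 background. A larger group of 82 genes annotated as transducin/WD40 repeat-like had 5 higher and 3 lower, with a median of 0.07. DEA(D/H)-box RNA helicases, enzymes that unwind RNA, had 3 of 17 higher and 0 lower, 2 of the 17 in the lists, with a median of 0.40, and 0.26 in the dcl2 dcl4 background. RNase H-like polynucleotidyl transferases (2 of 22 higher, median 0.38, and 0.31 in the dcl2 dcl4 background) and F-box/RNI-like proteins (1 of 16 higher, median 0.53, and 0.21) had shares of calls near those of all genes. Cysteine proteinases had 1 of 16 lower, and their median of 0.31 was -0.25 in the dcl2 dcl4 background.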
